A study of Mus musculus with 14 samples.

Results

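Microtubule-associated proteins bind along the microtubule and stabilise or bundle it, and the stathmins bind free tubulin and favour microtubule disassembly. The members of these families mark young neurons, and the doublecortin and MAP genes among them serve neuronal migration and the growth of axons and dendrites. Doublecortin (Dcx) and its kinase-bearing relative Dclk1, the large proteins Map1a and Map1b, the dendritic protein Map2, the axonal protein tau (Mapt) and the 4 stathmins Stmn1, Stmn2, Stmn3 and Stmn4 make up the set described here. The 10 genes were chosen by symbol, with no measured value in the rule, though earlier results of these data were known. They account for 81 of 128508 transcript rows and 10 of 51626 gene symbols in each of 3 tables of FPKM, the fragments per kilobase of transcript scaled to sequencing depth.

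RNA was sequenced from newborn mouse cortex at postnatal day 0.5. The frontal cortex set held 4 Auts2 conditional knockout (cKO) libraries, in which exon 15 of Auts2 is floxed on both alleles and removed by an Emx1-cre, and 4 wild type C57BL6/J libraries. Emx1 marks the dorsal progenitors that give rise to excitatory neurons, so interneurons and non-neural cells keep the intact gene, and an effect of Cre or of the floxed line cannot be told apart from the loss of Auts2. The RNA immunoprecipitation (RIP) set came from C57BL6/J cortex, with 2 neonates pooled per replicate and each lysate divided between AUTS2 RIP with an antibody against the C terminus, IgG as the control antibody, and the 10% input. This gave 2 trios, A and B, of 6 libraries. AUTS2 is a nuclear and cytoplasmic protein tied to autism and intellectual disability.

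FPKM is a level per transcript length, so levels of different genes are given side by side. Values still ran with length in some libraries, so an order of genes holds only for the libraries named. Read counts are not given, and the depth of each library and its counting error are unknown. Auts2 itself stood at 29.8, 35.2, 30.4 and 34.5 FPKM in cKO libraries, against 87.7, 92.2, 55.9 and 60.3 FPKM in wild type libraries. Of 6 marker genes of cortical excitatory neurons, 6 were above 0 in every group, and their summed level was 628 to 717 FPKM in cKO libraries, against 670 to 708 FPKM in wild type libraries. Libraries cKO 1, wild type 1 and wild type 2 stood apart from the other frontal cortex libraries, which correlated with each other at 0.9917 or more across genes. In cKO 1 the median log2 deviation of all tested genes ran with transcript length, at 0.17 for genes under 1.5 kb and −0.30 for genes over 7 kb. The 6 interneuron markers summed to 368 FPKM in cKO 1 and to 234 FPKM or more in each cKO library, against 226 to 237 FPKM in wild type. Much of the sum in cKO 1 came from Sst, at 155.1 FPKM, against 42.5 to 67.4 FPKM in wild type. Npy, at 90.8 FPKM in cKO 1, lay within the wild type range, and the other markers exceeded theirs, Gad2 only just. In bulk tissue, fewer cells of a type and less RNA per cell cannot be told apart.

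In the frontal cortex libraries the stathmins Stmn1 and Stmn2 were the most abundant of these RNAs and Map1a the scarcest. Stmn1, which is also found in dividing progenitors, averaged 1173.3 ± 55.9 FPKM in cKO and 1131.1 ± 55.9 FPKM in wild type (SD, n = 4 each). Stmn2, the neuronal stathmin of growth cones, averaged 743.9 ± 10.8 FPKM in cKO and 729.1 ± 31.2 FPKM in wild type. In wild type they were followed by Mapt (528 to 578 FPKM), Map2 (368 to 490), Dcx (358 to 396), Map1b (289 to 353), Stmn3 (301 to 329), Stmn4 (230 to 263), Dclk1 (155 to 188) and Map1a (14.5 to 21.1). In that order the ranges of the 4 wild type libraries overlapped between Map2 and Dcx and between Map1b and Stmn3, and every other neighbouring pair was apart. The order differed in the input libraries of the RIP set. There Map1b came first, at a mean of 609.5 FPKM, then Stmn1 at 539.9 FPKM, while Stmn2 averaged 220 FPKM.

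None of the 10 genes passed the test between cKO and wild type frontal cortex. The test was limma on log2(FPKM + 1) over the 12786 genes whose mean reached 1 FPKM, with Benjamini-Hochberg adjustment at 0.05. It called 3 genes in either direction, 0.0235% of those tested. At an unadjusted p under 0.05 the count was 1 of the 10 genes and 1011 of all genes. The median log2 fold change of the 10 genes was 0.06, beside 0.0013 over all tested genes.

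The 1 gene that came closest was Stmn4, a neuronal stathmin anchored to Golgi and vesicle membranes. It stood at 297.9, 270.5, 306.4 and 289.6 FPKM in cKO libraries, against 230.4, 248.6, 262.9 and 258.7 FPKM in wild type libraries. All 4 cKO values lay above all 4 wild type values. Groups did not overlap, in either direction, for 1 of the 10 genes and for 4.41% of all tested genes. The log2 fold change was 0.22 ± 0.06 (SE) and the adjusted p was 0.628 (limma with Benjamini-Hochberg adjustment). Its leading isoform Stmn4-201, at 270.4, 242.4, 281.0 and 262.8 FPKM in cKO and 212.8, 227.2, 238.4 and 236.5 FPKM in wild type, showed the same order of groups (log2 fold change 0.21, adjusted p = 0.827, limma over transcripts).

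The 6 doublecortin, MAP and tau genes had their lowest value of all 8 libraries in cKO 1. Map1b, the MAP that prevails in the embryonic and newborn rodent brain, stood at 171.7, 378.5, 391.6 and 378.8 FPKM in cKO, against 288.9, 323.9, 352.8 and 349.2 FPKM in wild type. The 3 other cKO values lay above all 4 wild type values, and cKO 1 lay below them. Map1a, which rises as the rodent brain matures, stood at 11.6, 21.3, 23.3 and 22.7 FPKM in cKO, against 14.7, 14.5, 21.1 and 19.4 FPKM in wild type. Again cKO 1 was the lowest and cKO 2 to 4 were the highest of the 8.

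Dclk1 stood at 126.1, 197.9, 203.3 and 201.7 FPKM in cKO and at 154.9, 159.7, 183.8 and 187.9 FPKM in wild type. Dcx, a cause of human lissencephaly when mutated, stood at 281.2, 382.5, 417.9 and 392.1 FPKM in cKO and at 370.3, 364.3, 357.5 and 395.6 FPKM in wild type. In both genes cKO 1 was the lowest, while cKO 2 to 4 exceeded all wild type libraries for Dclk1 and overlapped them for Dcx. The share of all tested genes lowest in cKO 1, or with cKO 2 to 4 above all wild type libraries, was not counted. Map2 stood at 345.0, 498.7, 535.7 and 482.5 FPKM in cKO, against 368.2, 368.4, 461.3 and 489.6 FPKM in wild type, and Mapt at 462.9, 572.8, 579.5 and 577.7 FPKM, against 527.8, 578.2, 557.1 and 531.9 FPKM. For both, cKO 1 was the lowest and the other cKO libraries overlapped wild type. Weighted by FPKM in these libraries, the transcripts of these 6 genes averaged 4921 to 11808 bases in length.

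The stathmin transcripts averaged 1052 to 2065 bases with the same weights, and none of the 4 genes was lowest in cKO 1. Stmn1 (1256.8, 1142.7, 1141.2 and 1152.6 FPKM in cKO, against 1110.2, 1212.0, 1118.0 and 1084.0 FPKM in wild type) and Stmn3 (381.1, 315.5, 298.0 and 330.3 FPKM in cKO, against 309.6, 329.1, 316.2 and 300.5 FPKM in wild type) had their highest value of all 8 libraries in cKO 1. Stmn2 in cKO 1 was 0.999 times the mean of the other 3 cKO libraries, Stmn4 1.03, Stmn1 1.10 and Stmn3 1.21 times. The same ratio was 0.448 for Map1b, 0.515 for Map1a, 0.628 for Dclk1, 0.682 for Map2, 0.708 for Dcx and 0.803 for Mapt.

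**Figure D1:**
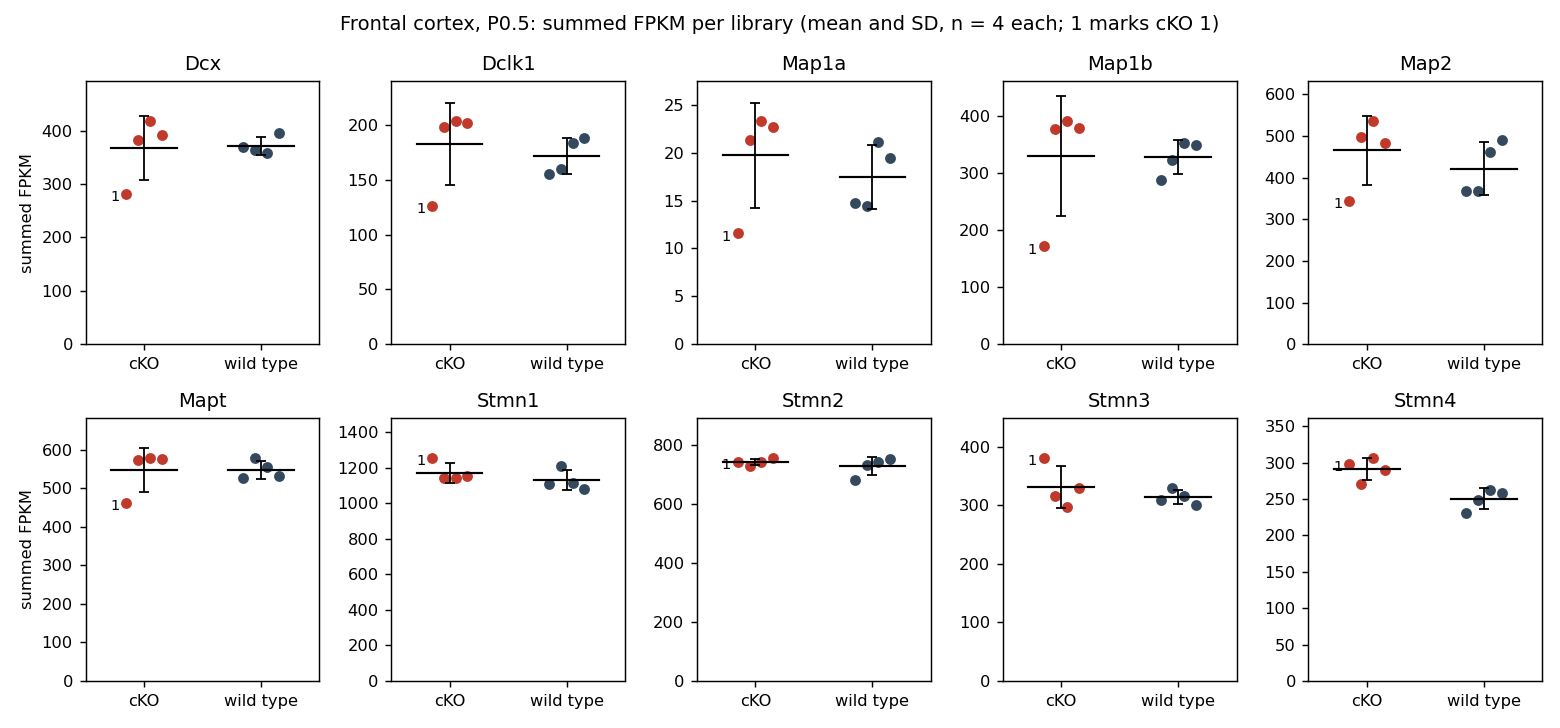
Summed FPKM of each gene in the 4 cKO (left) and 4 wild type (right) frontal cortex libraries, with a line at the mean and bars for the SD. Library cKO 1, marked with a 1, is the lowest point for Dcx, Dclk1, Map1a, Map1b, Map2 and Mapt and the highest for Stmn1 and Stmn3, and Stmn4 is the only panel in which the groups do not overlap.

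Without cKO 1 still none of the 10 genes passed, but 5 had an unadjusted p under 0.05 (1079 of all 12771 genes). The log2 fold changes were then 0.36 for Map1a, 0.27 for Map2, 0.23 for Dclk1, 0.22 for Map1b and 0.21 for Stmn4, each with an adjusted p of 0.573 (limma). With wild type 1 and 2 left out as well, 3 of the 10 genes had an unadjusted p under 0.05 (636 of all 12774 genes) and none passed. With all 8 libraries, the 95% intervals of the log2 fold change were −0.53 to 0.40 for Map1b, −0.28 to 0.56 for Map1a, −0.26 to 0.20 for Dcx, −0.17 to 0.16 for Mapt, −0.16 to 0.42 for Map2, −0.23 to 0.36 for Dclk1, −0.09 to 0.24 for Stmn3, −0.08 to 0.18 for Stmn1 and −0.09 to 0.15 for Stmn2. Leaving cKO 1 out turned the sign of Dcx to 0.10, of Map1b to 0.22 and of Mapt to 0.07.

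None of the 16 tested doublecortin and MAP relatives passed, nor did any of 5 collapsin response mediators, 18 microtubule end-binding proteins, 6 severing proteins, 20 kinases of MAPs and stathmins or 14 lissencephaly and dynein genes. At an unadjusted p under 0.05 the count was 4 of 79 genes in these lists. The list medians of the log2 fold change ran from −0.03 to 0.01. Over the 8 frontal cortex libraries, the genes most like each of the 10 in log2 level, among 6714 genes whose mean reached 10 FPKM, were Ccser2 and Secisbp2l for Dcx, Cltc and Dlg2 for Dclk1, Tmod2 and Sptbn1 for Map1a, Erc1 and Ablim1 for Map1b, Scn2a and Atp8a1 for Map2, and Dpysl3 and Ptprn2 for Mapt. For the stathmins they were Plekho1 and Rpl19 for Stmn1, Vdac2 and Pigq for Stmn2, Atp5d and Rundc3a for Stmn3, and Mrps27 and Alad for Stmn4. Pearson's r was 0.946 to 0.996 over 8 libraries and 0.91 to 0.99 over the 7 without cKO 1. All 8 include cKO 1 with its length trend, so these likenesses are a description and carry no p.

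**Figure D2:**
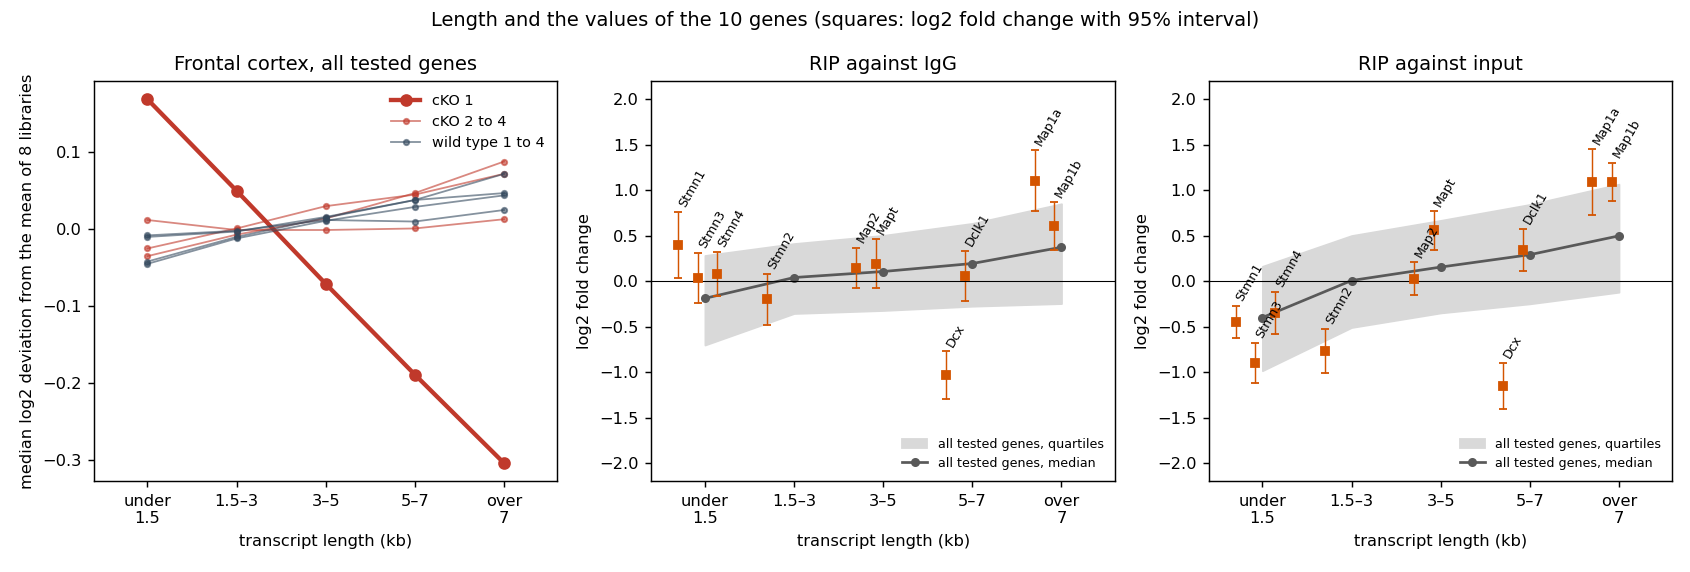
Left, the median log2 deviation of all tested genes from the mean of the 8 frontal cortex libraries, by transcript length in kb, with cKO 1 running from 0.17 to −0.30. Middle and right, log2 fold changes of the 10 genes (squares, 95% interval) in RIP against IgG and RIP against input, over the median and quartiles of all tested genes of the same length class, where Dcx lies well below its class.

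Isoforms differ in what they encode, and 49 of the 81 rows averaged at least 1 FPKM in the frontal cortex, while 8 were listed at 0 throughout. Between cKO and wild type none of the 49 rows passed limma over 26835 transcripts, of which 1 was called (0.00373%). At an unadjusted p under 0.05 the counts were 3 of 49 rows and 1523 of all transcripts. Map1b and Stmn3 have a single row each. One row carried most of the FPKM of Mapt (Mapt-204, 97% to 98.1% over the 8 libraries), of Stmn1 (Stmn1-201, 96.8% to 98%), of Stmn2 (Stmn2-201, 98.8% to 99.3%), of Dcx (Dcx-201, 82.9% to 90.1%) and of Map1a (Map1a-202, 73.1% to 81.1%). The shares given from here on are descriptions of per-library FPKM and were not tested.

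Map2 (chr1:66175273-66442583, plus strand, GRCm38) makes a long protein through a coding exon of 3741 bases and a short, juvenile protein that skips it. The long form was read from Map2-204 (1828 residues) and the short one from 6 rows led by Map2-201 (467 residues). Of the summed long and short coding FPKM, the long form took 26.3%, 32.6%, 33.6% and 33.8% in cKO libraries, against 32.5%, 33.7%, 32.1% and 31.7% in wild type libraries. The groups overlapped, with cKO 1 lowest, and the 2 forms end at different places, 3393 bases apart. Map2-201 stood at 194.0, 252.0, 253.6 and 238.1 FPKM in cKO, against 181.6, 170.8, 230.1 and 244.0 FPKM in wild type, and Map2-204 at 80.0, 138.0, 154.4 and 141.7 FPKM, against 100.1, 103.4, 126.1 and 133.2 FPKM.

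Near its C terminus Map2 carries tubulin-binding repeats, and an optional exon of 93 bases adds 1 repeat. The exon is shown because it changes the part of the protein that touches the microtubule. It lies at chr1:66431527-66431619 (GRCm38, plus strand), and the sequence comes from the GENCODE vM21 transcript.
Map2 repeat exon: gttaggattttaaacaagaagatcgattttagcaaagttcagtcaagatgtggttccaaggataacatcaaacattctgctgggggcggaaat

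The 2 complete coding Map2 rows with this exon took 0.887% to 1.9% of the long and short coding FPKM in cKO libraries and 0.7% to 1.45% in wild type libraries. The ranges overlapped. The leading tau row, Mapt-204 (372 residues; Mapt lies at chr11:104231390-104332090, plus strand), stood at 452.2, 555.4, 564.1 and 566.0 FPKM in cKO, against 515.1, 567.2, 544.0 and 518.3 FPKM in wild type. The groups overlapped, and Mapt-206, a non-coding row, stood at 3.99 to 6.59 FPKM in cKO and 5.16 to 6.70 FPKM in wild type.

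Dclk1 (chr3:55242364-55539068, plus strand) gives proteins with doublecortin domains and a kinase, with the doublecortin domains alone, or, from an internal start, with the kinase and no doublecortin domains. The full-length rows took 49.1%, 52.0%, 52.9% and 53.7% of Dclk1 FPKM in cKO, against 53.8%, 57.3%, 52.4% and 53.9% in wild type. The doublecortin-only row Dclk1-203 took 19.4% to 21.8% in cKO, against 18.2% to 20.2% in wild type, and the 6 kinase rows took 21.1% to 24% in cKO, against 20.3% to 23.3% in wild type. In each class the groups overlapped. Dclk1-201 stood at 50.03, 87.6, 84.5 and 82.7 FPKM in cKO and at 62.5, 72.5, 76.6 and 73.9 FPKM in wild type. The locus overlaps 6 other annotated genes, 2 of them on the other strand. The strand setting of the counting is unknown, so reads of overlapping genes cannot be told apart.

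Libraries of the AUTS2 pull-down had higher levels of the MAP1 genes and a lower level of Dcx than the IgG libraries. FPKM is scaled to the depth of each library, so it does not give the amount of RNA that an antibody brought down. Map1a stood at 113.2 and 94.3 FPKM in RIP, against 51.3 and 44.0 FPKM in IgG. Map1b was the most abundant of the 10 in both, as it was in the input, at 1331.8 and 1227.5 FPKM in RIP, against 910.6 and 777.7 FPKM in IgG. Both RIP libraries exceeded both IgG libraries for each gene. Dcx was the scarcest of the 10 in RIP, at 79.7 and 91.2 FPKM, against 177.9 and 173.9 FPKM in IgG.

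These 3 genes passed limma with Benjamini-Hochberg adjustment over 14570 genes. The log2 fold change was 1.10 ± 0.14 for Map1a (SE, adjusted p = 0.00488), 0.60 ± 0.11 for Map1b (adjusted p = 0.0135) and −1.04 ± 0.11 for Dcx (adjusted p = 0.0034). Thus 2 of 10 genes were called higher, beside 13.7% of all genes, and 1 of 10 lower, beside 9.69%. With such shares called among all genes, the count of the 10 genes does not set them apart. Groups did not overlap for 8 of the 10 genes and for 64.4% of all genes. The median log2 fold change of the 10 genes was 0.11, beside 0.02 over all tested genes. An exact permutation test of 2 against 2 libraries cannot go below p = 0.333, so each call rests on the spread that limma shares across genes. Without IgG A no gene of the table was called by limma (5177 of 14330 had an unadjusted p under 0.05), and the adjusted p of Dcx, Map1a and Map1b was then 0.0511 each.

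The other 7 genes did not pass between RIP and IgG. Stmn1 stood at 387.1 and 390.8 FPKM in RIP, against 343.1 and 253.7 FPKM in IgG (log2 fold change 0.40, adjusted p = 0.106, limma). Map2 stood at 486.9 and 513.3 FPKM in RIP and 466.4 and 437.3 FPKM in IgG, and Mapt at 253.4 and 252.7 FPKM and 239.0 and 204.7 FPKM, with 95% intervals of the log2 fold change of −0.08 to 0.37 and −0.07 to 0.46. Dclk1 stood at 115.4 and 113.9 FPKM in RIP and 119.2 and 101.9 FPKM in IgG, with an interval of −0.22 to 0.33. The IgG libraries of Dclk1 lay on both sides of the RIP libraries, while for Stmn1, Map2 and Mapt both RIP libraries were the higher.

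Of the neuronal stathmins, Stmn2 stood at 120.7 and 132.5 FPKM in RIP, against 155.7 and 135.8 FPKM in IgG, and both RIP libraries were the lower (interval −0.48 to 0.08). Under quantile normalization Stmn2 was called lower, at a log2 fold change of −0.51 (adjusted p = 0.0287, limma). Stmn3, which like Stmn2 is held at membranes, stood at 141.7 and 130.3 FPKM in RIP and 142.2 and 123.9 FPKM in IgG, with overlap (interval −0.24 to 0.31). Stmn4 stood at 163.0 and 159.4 FPKM in RIP and 159.0 and 145.8 FPKM in IgG, with no overlap (interval −0.16 to 0.32).

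RIP and IgG also differed by transcript length over all genes, with a median log2 fold change of −0.19 for genes under 1.5 kb and 0.37 for genes over 7 kb. Map1a and Map1b have the longest transcripts of the 10 genes, at 10488 and 11808 bases. The length of a gene here is a mean over its rows, weighted by their FPKM in the libraries compared. With the trends of length and GC content removed, Map1a had a log2 fold change of 0.40 (adjusted p = 0.0818, limma) and Map1b of 0.24 (adjusted p = 0.191), and neither was called. Dcx, with a weighted mean length of 6164 bases, kept a log2 fold change of −0.84 (adjusted p = 0.00708), and Stmn1 was then called higher at 0.54 (adjusted p = 0.0429). Map1b also lost its call when any 1 of the 4 libraries was left out, with an adjusted p of 0.0511 to 0.0901, under quantile normalization (0.38, adjusted p = 0.0703) and without trend and robust settings (adjusted p = 0.0877, limma).

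**Figure D3:**
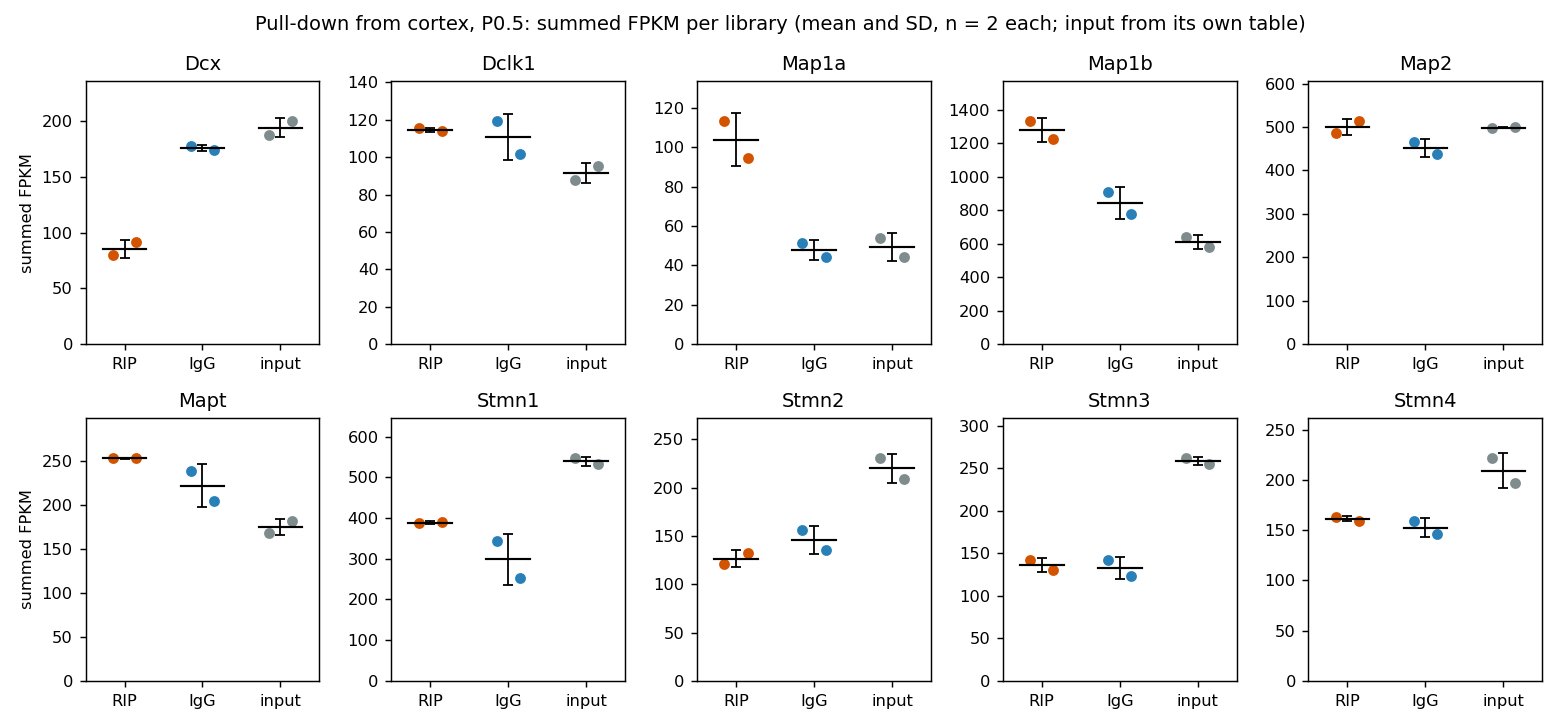
Summed FPKM of each gene in the 2 RIP, 2 IgG and 2 input libraries of cortex, with a line at the mean and bars for the SD; the input values come from a table that was scaled separately. The RIP points lie above both other groups for Map1a, Map1b and Mapt and below both for Dcx and Stmn2. Mapt and Stmn2 did not pass against IgG.

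Set against the input, 9 of the 10 genes passed. The comparison used the same 2 RIP libraries as the one with IgG, so the 2 comparisons are not independent. Map1b stood at 1355.8 and 1246.2 FPKM in RIP, against 638.4 and 580.5 FPKM in input (log2 fold change 1.09 ± 0.09, SE, adjusted p = 0.000967, limma over 14458 genes). Map1a stood at 115.2 and 95.7 FPKM in RIP, against 54.1 and 44.1 FPKM in input (1.09 ± 0.15, adjusted p = 0.00377). Dcx stood at 81.2 and 92.6 FPKM in RIP, against 187.9 and 199.9 FPKM in input (−1.15 ± 0.10, adjusted p = 0.0013). For each of the 3 genes the groups were apart, with Map1b and Map1a higher and Dcx lower in RIP.

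Mapt was higher in RIP, at 258.0 and 256.4 FPKM, against 168.2 and 181.2 FPKM in input, and Dclk1 was higher by a small margin, at 117.5 and 115.6 FPKM, against 87.95 and 95.4 FPKM. Their log2 fold changes were 0.56 (adjusted p = 0.00548, limma) and 0.34 (adjusted p = 0.0353), and that of Dclk1 turned to −0.02 under quantile normalization. All 4 stathmins were lower in RIP than in input. Stmn3 stood at 144.3 and 132.3 FPKM in RIP, against 262.2 and 255.1 FPKM in input (log2 fold change −0.90). Stmn2 stood at 122.9 and 134.5 FPKM in RIP, against 230.7 and 209.3 FPKM in input (−0.77).

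Stmn1 stood at 394.0 and 396.8 FPKM in RIP, against 547.7 and 532.0 FPKM in input (−0.45), and Stmn4 at 166.0 and 161.8 FPKM, against 221.9 and 196.7 FPKM (−0.35, adjusted p = 0.0354, limma, the closest of the 4 to the threshold). Both groups were tight, and they did not overlap for any stathmin. Map2 was the 1 gene that did not pass, at 495.6 and 521.2 FPKM in RIP and 497.6 and 499.7 FPKM in input, with overlap and a 95% interval of the log2 fold change of −0.15 to 0.21. In all, 4 of 10 genes were called higher, beside 19.3% of all genes, and 5 of 10 lower, beside 16.6%. Groups did not overlap for 9 of the 10 genes and for 71.1% of all genes.

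Here too the values of all genes ran with length, from a median log2 fold change of −0.40 under 1.5 kb to 0.50 over 7 kb. With the trends of length and GC content removed, 4 of the 10 genes passed, namely Map1b (log2 fold change 0.50, adjusted p = 0.00737, limma), Dcx (−0.98, adjusted p = 0.00239), Stmn3 (−0.85, adjusted p = 0.00254) and Stmn2 (−0.51, adjusted p = 0.013). Map1a then turned to −0.03, Stmn4 to 0.04, and Mapt fell to 0.07. Without RIP A 4 of the 10 genes and 1395 of 14641 genes passed. Of the 10 genes 7 passed without RIP B (1905 of 14575 genes), without input A (3461 of 14338) and without input B (3471 of 14259).

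Dcx was the member whose RNA differed most between libraries of the 2 antibodies after its length was taken into account, and its isoforms differed too. Dcx (chrX:143855842-143933311, minus strand, with no other annotated gene overlapping it) has 4 coding rows and 2 retained-intron rows. The transcripts of Dcx-201 (366 residues) and Dcx-203 (365 residues) have 9074 and 4095 bases. The last exon ends 4869 bases farther on in Dcx-201, and other bases outside the coding sequence differ too. Within the coding sequence the rows differ by 3 bases at the 3′ end of an exon. The exon end is shown because this alternative splice site is all that separates their coding sequences; it runs over chrX:143870607-143870639 (GRCm38, minus strand, GENCODE vM21), and capitals mark the bases that Dcx-203 lacks.
Dcx-201 exon end: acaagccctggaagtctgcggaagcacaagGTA

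Dcx-201 stood at 38.6 and 42.7 FPKM in RIP, against 96.0 and 89.7 FPKM in IgG, and Dcx-203 at 8.78 and 10.0 FPKM, against 41.1 and 36.4 FPKM. The log2 fold changes were −1.17 and −1.93, each with an adjusted p of 0.0528 (limma over 31785 transcripts). Dcx-203 took 11% of Dcx FPKM in both RIP libraries, against 23.1% and 20.9% in IgG and 14.7% and 13.2% in input. The 2 retained-intron rows took 25.6% and 27.4% in RIP, against 16.8% and 19.4% in IgG and 17.3% and 21.9% in input. Dcx-206, the more abundant of them in RIP, stood at 13.9 and 16.4 FPKM in RIP, against 19.2 and 26.5 FPKM in IgG. Dcx-202, at 5.25 and 7.27 FPKM in RIP, against 2.65 and 3.03 FPKM in IgG, went the other way (adjusted p = 0.181). Dcx-203 was chosen for naming after its values were seen, and so were Dclk1-207, Map2-206, Map2-207, Map2-220 and Map2-221.

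Over all isoforms of the 10 genes, none of 54 tested rows passed between RIP and IgG, where 0% of all transcripts were called higher and 0% lower. At an unadjusted p under 0.05 the counts were 19 of 54 rows and 7199 of 31785 transcripts, and with the filter raised to a mean of 5 FPKM 4 of 36 rows and 1856 of 11497 transcripts passed. Between RIP and input 8 of 53 rows passed, and none did with the trios as a replicate block, where 3 of 31322 transcripts were called. The 3 higher rows were Map1b-201, Map1a-202 and Dclk1-207, a kinase row with no doublecortin domains, and 4.48% of all transcripts were called higher. The 5 lower rows were Dcx-201, Dcx-203, Stmn1-201, Stmn2-201 and Stmn3-201, and 2.35% of all transcripts were called lower. None of the 8 passed with any 1 library left out. With length and GC trends removed the 5 lower rows passed and none of the 3 higher ones did (857 of 31189 transcripts were called), and Stmn1-201 turned to a log2 fold change of 0.09 under quantile normalization.

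Dclk1-207 stood at 16.8 and 11.7 FPKM in RIP, against 3.85 and 3.61 FPKM in input (log2 fold change 1.67, adjusted p = 0.0467, limma), and at 0.329 and 6.28 FPKM in IgG. Map1a-202 (2776 residues) stood at 92.7 and 78.1 FPKM in RIP, against 42.0 and 33.7 FPKM in input (1.16, adjusted p = 0.0433), and its log2 fold change turned to −0.08 with length and GC trends removed. The longer Map1a-201 (3014 residues) stood at 22.5 and 17.7 FPKM in RIP, against 12.2 and 10.4 FPKM in input (0.77, adjusted p = 0.1). Map1a (chr2:121289600-121310832, plus strand) overlaps Gm14978 and Ppip5k1 on the other strand, and Map1b (chr13:99421446-99516540, minus strand) overlaps 5330431K02Rik.

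The long form of Map2 held a larger share in RIP than in either control. It took 64.1% and 62.8% of the long and short coding FPKM in RIP, against 54.9% and 53.5% in IgG, and against 55.6% and 51.9% in input. Map2-204 stood at 208.7 and 201.5 FPKM in RIP, against 163.7 and 153.0 FPKM in IgG, while Map2-201 stood at 91.4 and 88.3 FPKM, against 111.4 and 108.4 FPKM. The 2 rows moved apart with no overlap, and neither passed (log2 fold changes 0.37 and −0.29, adjusted p = 0.102 and 0.151, limma). Against input their log2 fold changes were 0.20 and −0.37 (adjusted p = 0.193 and 0.0845, limma). Map2-204 has 6258 bases and Map2-201 has 5195, and their ends lie 3393 bases apart. The part of length in this share was not tested. The 6 partial rows that lie within or across the large exon took 8.34% and 11.3% of Map2 FPKM in RIP, against 6.5% and 6.36% in IgG and 8.17% and 8.08% in input.

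The complete coding rows with the repeat exon took 5.29% and 6.6% of the long and short coding FPKM of Map2 in RIP, against 6.25% and 7.77% in IgG and 4.81% and 7.59% in input. These rows are Map2-206 and Map2-207, while the partial rows Map2-220 and Map2-221, which also hold the exon, are not in this share. Map2-206 had a value of 0 in each of the 8 libraries of frontal cortex. Map2-206 stood at 17.2 and 21.2 FPKM in RIP, 3.80 and 22.3 FPKM in IgG, and 16.3 and 25.4 FPKM in input.

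**Figure D4:**
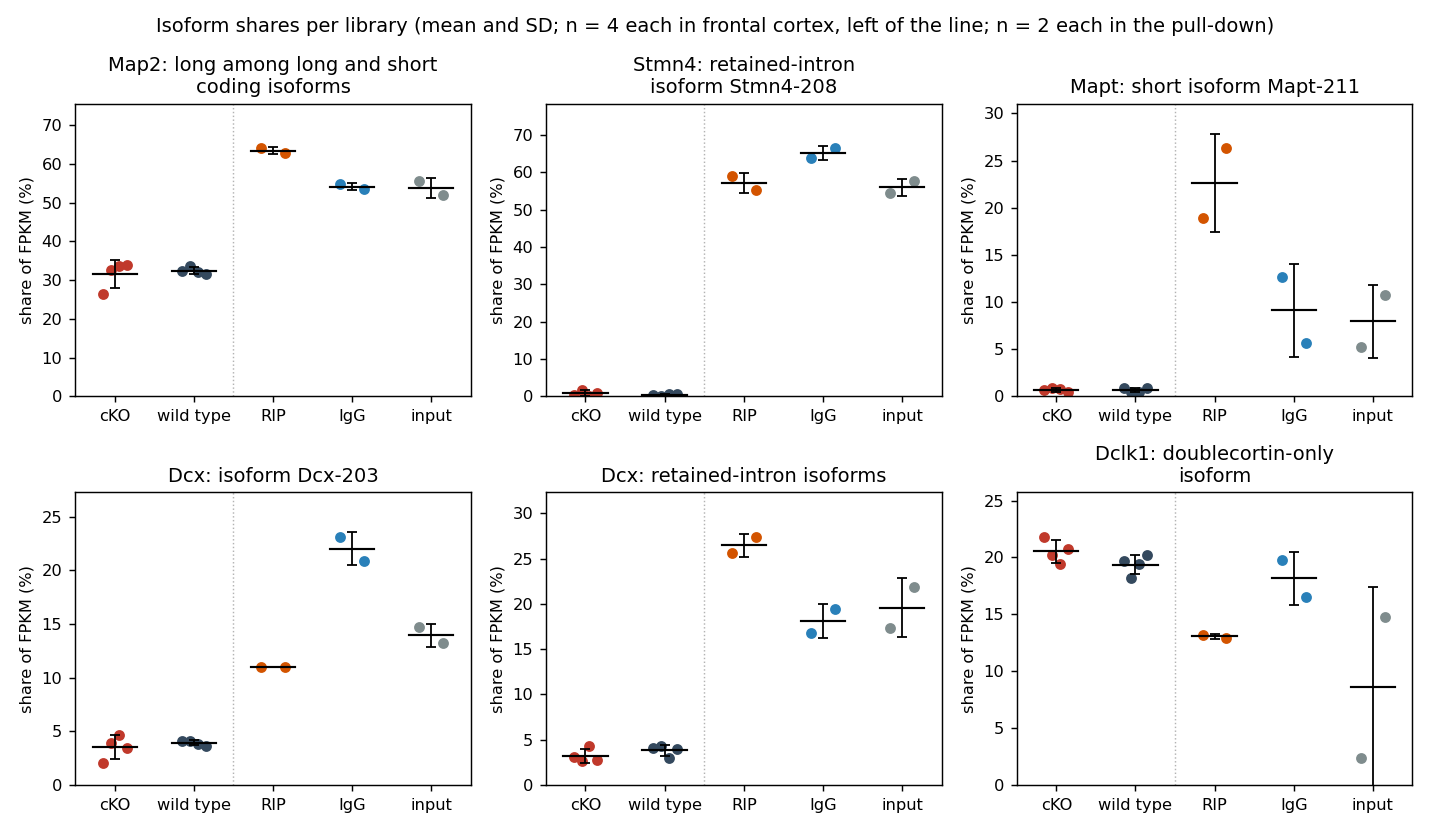
Share of FPKM (percent) held by 6 isoforms or isoform groups in cKO and wild type frontal cortex libraries (left of the dotted line) and in RIP, IgG and input libraries of cortex (right), with a line at the mean and bars for the SD. cKO and wild type overlap in each panel, the long Map2 form and Mapt-211 are highest in RIP, and Stmn4-208 is near 0 in frontal cortex and above 50% in the pull-down.

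For tau, a short row stood out in the pull-down. Mapt-211 has 600 bases and an added exon of 198 bases at chr11:104305212-104305409 (GRCm38, plus strand), which 2 other Mapt rows also hold. The exon, from the GENCODE vM21 transcript, is shown because Mapt-204 lacks it. It tells Mapt-211 from Mapt-204, but not from the 2 other rows that hold it.
Mapt added exon: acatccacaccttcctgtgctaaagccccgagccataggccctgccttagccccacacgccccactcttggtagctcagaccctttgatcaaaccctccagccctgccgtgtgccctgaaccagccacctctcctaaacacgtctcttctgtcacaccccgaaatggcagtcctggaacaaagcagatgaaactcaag

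Mapt-211 stood at 47.9 and 66.5 FPKM in RIP, against 30.1 and 11.5 FPKM in IgG, and in the input table at 48.8 and 67.4 FPKM in RIP, against 8.70 and 19.3 FPKM in input. Both RIP values lay above the others (log2 fold change 1.54, adjusted p = 0.189 against IgG; 2.06, adjusted p = 0.0756 against input, limma). It took 18.9% and 26.3% of Mapt FPKM in RIP, 12.6% and 5.63% in IgG, and 5.17% and 10.7% in input. The main row Mapt-204 stood at 191.2 and 174.4 FPKM in RIP, against 197.6 and 174.0 FPKM in IgG, with overlap. In the frontal cortex libraries Mapt-211 stood at 2.5 to 5.06 FPKM in cKO and 2.59 to 4.85 FPKM in wild type. The Mapt locus overlaps 3 genes annotated on the other strand.

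Stmn4 (chr14:66344296-66361680, plus strand) is carried by a different row in the 2 sets. Stmn4-208, annotated as a retained intron, ends 65 bases into an intron and lacks the last exon of 606 bases that Stmn4-201 holds. The junction is shown because these 65 bases, in capitals, separate the retained-intron row from the spliced one. It runs over chr14:66358008-66358102 (GRCm38, plus strand, GENCODE vM21), with the last 30 exon bases in lower case.
Stmn4-208 exon end and intron: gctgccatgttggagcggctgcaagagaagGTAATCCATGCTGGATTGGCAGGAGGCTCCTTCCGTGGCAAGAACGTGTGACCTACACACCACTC

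Stmn4-208 took 0.329%, 1.79%, 0.157% and 0.992% of Stmn4 FPKM in cKO frontal cortex, against 0.286%, 0%, 0.632% and 0.471% in wild type. In the pull-down it took 59% and 55.3% in RIP, against 63.7% and 66.4% in IgG and 54.3% and 57.6% in input. The frontal cortex libraries were made from polyA RNA with a TruSeq kit and the pull-down libraries from total RNA with a SMARTer kit, and tissue, RNA and kit cannot be told apart here. The spliced row Stmn4-201 stood at 53.3 and 63.6 FPKM in RIP, against 45.5 and 38.4 FPKM in IgG (log2 fold change 0.47, adjusted p = 0.189, limma). Over coding rows alone, Stmn4 had a log2 fold change of 0.36 between RIP and IgG (adjusted p = 0.0686) and −0.39 between RIP and input (adjusted p = 0.0421). Rows with an added coding exon of 81 bases, led by Stmn4-204, took 7.74% to 8.67% of Stmn4 FPKM in cKO and 6.1% to 8.2% in wild type.

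The other stathmins had 1 leading row in the pull-down as well. Stmn1 (chr4:134468320-134473843, plus strand) was carried by Stmn1-201, at 352.7 and 348.7 FPKM in RIP, against 317.5 and 222.8 FPKM in IgG. Its row Stmn1-203, with the same 149 residues, stood at 21.5 and 25.2 FPKM in RIP, against 5.48 and 9.79 FPKM in input (log2 fold change 1.54, adjusted p = 0.0711, limma), opposite to Stmn1-201 (−0.54, adjusted p = 0.0327). Stmn2-201 took 95.5% to 97.7% of Stmn2 FPKM (chr3:8509360-8561606, plus strand) in the RIP, IgG and input libraries other than IgG A, where it took 94.6%. Stmn3 (chr2:181306459-181314500, minus strand) has a single row. Retained-intron rows made up 5.49% and 5.8% of the FPKM of the 10 genes in RIP, against 8.06% and 8.55% in IgG and 7.1% and 7.91% in input, and 0.411% to 0.745% in the frontal cortex libraries.

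Summed markers of some other cells also differed in the pull-down, while those of others overlapped. The 6 radial glia markers summed to 143 to 172 FPKM in RIP, against 110 to 116 FPKM in IgG, the 4 striatal neuron markers to 112 to 123 FPKM, against 64.2 to 89.2 FPKM, and the 4 oligodendrocyte lineage markers to 68.3 to 74.4 FPKM, against 55 to 57.3 FPKM. The 4 microglia markers summed to 10.9 to 11 FPKM in RIP, against 14.1 to 18.4 FPKM in IgG. The 3 red blood cell markers summed to 15.1 to 31 FPKM in RIP, against 23.7 to 28.2 FPKM in IgG, with overlap, and in the input table to 15.4 to 31.5 FPKM in RIP, against 60.3 to 64.1 FPKM in input. The excitatory neuron markers summed to 409 to 434 FPKM in RIP, against 407 to 419 FPKM in IgG. Ranges also overlapped for interneurons (247 to 259 FPKM in RIP, 223 to 277 FPKM in IgG) and astrocytes (98 to 120 FPKM, 116 to 123 FPKM). The same held for endothelium (15.5 to 17.1 FPKM in RIP, 12 to 19.6 FPKM in IgG). Each lysate was divided between RIP, IgG and input, so the libraries of a trio came from the same cells. The sums are levels of marker RNAs and not amounts of cells. How they relate to the values of the 10 genes was not tested.

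Other genes of the microtubule system were called in both directions in the pull-down. Against IgG, where 13.7% of all genes were called higher and 9.69% lower and longer transcripts ran higher, 9 of 18 tested microtubule end-binding proteins were called higher and 2 lower. The neuron navigator Nav1 stood at 477.0 and 445.1 FPKM in RIP, against 176.8 and 185.8 FPKM in IgG, and the plus-end protein Clip1 at 353.5 and 357.1 FPKM, against 105.0 and 131.3 FPKM (log2 fold changes 1.34 and 1.59, adjusted p = 0.00248 each, limma). Of 18 doublecortin and MAP relatives 6 were called higher and none lower (all genes 13.7% and 9.69%), among them Map7d1, a microtubule-binding protein that recruits kinesin, with a log2 fold change of 1.00 (adjusted p = 0.00495). Of 20 kinases that phosphorylate MAPs or stathmins 2 were called higher and 7 lower (all genes 13.7% and 9.69%). The tau kinase Gsk3b stood at 22.7 and 25.3 FPKM in RIP, against 63.4 and 62.7 FPKM in IgG (log2 fold change −1.36, adjusted p = 0.00264).

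Of 14 lissencephaly and dynein genes 4 were called higher against IgG and 2 lower (all genes 13.7% and 9.69%), with the dynein heavy chain Dync1h1 at 318.8 and 291.8 FPKM in RIP, against 157.7 and 138.1 FPKM in IgG. Of 5 collapsin response mediators none was called higher and 2 lower (all genes 13.7% and 9.69%), with Dpysl2 at 208.3 and 170.4 FPKM in RIP, against 342.1 and 300.3 FPKM in IgG. The median log2 fold change was 0.49 for the end-binding proteins, 0.57 for the doublecortin and MAP relatives and −0.10 for the kinases. Against input, where 19.3% of all genes were called higher and 16.6% lower, the counts higher and lower were 9 and 4 of 18 end-binding proteins, 10 and 2 of 17 relatives, 5 and 6 of 20 kinases, 5 and 4 of 14 lissencephaly and dynein genes, and 2 and 0 of 5 collapsin response mediators.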

How the data were processed

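Values are FPKM per transcript in 3 deposited tables, per the file headers, and were used as the authors scaled them. Per the submitters' processing notes the tools were Cuffdiff 2.2.1, STAR 2.5 and SAMtools, with GRCm38.p4 (mm10) as the build. How reads were filtered, assigned to strands and scaled between libraries is unknown. Each table was scaled by itself, and the RIP libraries differ by 1.018 (A) and 1.0152 (B) between the pull-down tables, so tests stay within a table. Identifiers of 127975 of 128508 transcripts matched GENCODE vM21, which gave symbols, structures and sequences. cKO 4 was matched to its column by library number, since its short name differs, and statements on it alone rest on that match.

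FPKM was summed per symbol. Rows with a mean of at least 1 FPKM were put on the log2(FPKM + 1) scale and compared by limma (version 3.58.1, R 4.3.3; trend, robust, two-sided), adjusted over all rows at 0.05. Fold changes on this scale understate those of low rows. Figures and tables used Python 3.11.15. The fits were tested on simulated data. The submitters call the libraries biological replicates.

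The rows named are, for each gene, the 2 highest in wild type and in RIP, and of each related gene list the 2 with the smallest p where a member was called, of which the text gives some. The severing proteins in the pull-down are not reported here. The genes and lists were chosen with earlier results of these data known. The letters A and B mark matched trios per the series design, and deviations of same-lettered libraries correlated at 0.0088 (RIP and IgG) and 0.012 (RIP and input).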

Additional observations from a re-analysis of the deposited data

Results flagged for a closer look

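In the 4 cKO frontal cortex libraries, cKO 1 lay farther from its nearest neighbour than Dixon's 95% limit allows for 5 of the 10 genes. It stood at 126.1 FPKM for Dclk1, 11.57 FPKM for Map1a, 171.7 FPKM for Map1b and 462.9 FPKM for Mapt, each the lowest of the group, and at 1256.8 FPKM for Stmn1, the highest. The share of the long Map2 form was also lowest in cKO 1, at 26.31% of the long and short coding FPKM. These 6 came from 54 groups examined, and chance flags about 1 in 20. All 6 fell on the same library, in which the median log2 deviation of all tested genes was 0.17 under 1.5 kb and −0.30 over 7 kb.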

How the results depend on the processing

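Over 200 alternative values of the 10 log2 fold changes between cKO and wild type, none was called. With 1 library left out signs turned for Dcx (−0.0943 to 0.0957; above 0 without wild type 4, at 0.0014, and without cKO 1), Map1b (−0.1708 to 0.2241; above 0 without cKO 1), Mapt (−0.0355 to 0.0724; above 0 without wild type 2, at 0.0187, wild type 3, at 0.0008, or cKO 1) and Stmn2 (−0.0004 to 0.0466; below 0 without wild type 1). Without both wild type 1 and 2 they turned for Dclk1 (−0.0546), Map1a (−0.0839), Map2 (−0.0494), Mapt (0.0038) and Stmn2 (−0.0106). In 2 settings chosen after seeing the data they turned for Dcx (0.0787), Map1b (0.1252), Mapt (0.0829) and Stmn2 (−0.0104) without cKO 1, wild type 1 and wild type 2, and for Dcx (0.0404), Map1b (0.0387), Mapt (0.0478) and Stmn1 (−0.0070) with length and GC trends removed. Between RIP and IgG they turned under quantile normalization for Dclk1 (−0.2936), Mapt (−0.0104), Stmn3 (−0.2421) and Stmn4 (−0.1997), without IgG B for Dclk1 (−0.0551, against up to 0.1685 with another library left out) and Stmn3 (−0.0644, against up to 0.1328), with length and GC trends removed for Mapt (−0.1204) and Stmn3 (−0.0105), and for Stmn3 under median-ratio rescaling (−0.0153) and without RIP A (−0.0257). Between RIP and input they turned for Dclk1 (−0.0158) and Stmn1-201 (0.0905) under quantile normalization, for Map1a (−0.0346), Map1a-202 (−0.0823) and Stmn4 (0.0353) with length and GC trends removed, and for Map2 without RIP B (−0.0087, against up to 0.0636). Dcx, Map1b, Stmn2 and Stmn3 kept their calls against input under all 14 alternatives.

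The count of genes called against IgG ran from 0 to 2 of 10 with 1 library left out, against 3 in full. Against input it was 5 without trend and robust settings, 4 with length and GC trends removed and 4 to 7 with 1 library left out, against 9 in full. The count of isoforms called against IgG was 2 with a pseudocount of 5 and 4 with a mean of at least 5 FPKM, against 0 in full. Against input it was 0 without filter, 4 under quantile normalization, 0 without trend and robust settings, 5 with length and GC trends removed and 0 with any 1 library left out, against 8 in full. With the replicate block, 0, 3 and 9 genes and 0, 0 and 0 isoforms were called in cKO, IgG and input comparisons, so the block changed only the isoforms against input. In the frontal cortex the block is by number only, as same-numbered libraries correlated at 0.1763, 0.0173, −0.0394 and 0.0659 and 1 of 4 cKO libraries correlated best with its own number. The causes were not tested. With 2 libraries a group and no counts, small differences in the pull-down cannot be resolved.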
